A study of Mus musculus with 5 samples.

Results

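The Ms4a genes encode small proteins that cross the plasma membrane 4 times and are carried mostly by blood cells. Taken here are the 10 genes Ms4a1, Ms4a2, Ms4a4b, Ms4a4c, Ms4a4d, Ms4a6b, Ms4a6c, Ms4a6d, Ms4a7 and Ms4a8a, chosen by their symbol in the platform's probe annotation, with all 19 of their probe sets, of 18193 genes and 45101 probe sets on the array. They were measured with Affymetrix whole-genome mouse arrays on total RNA labelled as B220+ bone marrow cells, enriched with magnetic beads from FVB mice of 4 weeks. Mice homozygous for a kinase-dead knockin of IKKα (called KA/KA) gave 3 arrays, and their wild-type littermates (WT) gave 2. IKKα drives the alternative arm of NF-κB signalling. All mice received no treatment, the knockin is present in all cells of the animal, and the labels do not say whether an array holds 1 mouse or a pool.

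Members of the family mark different cells. Ms4a1 is CD20, the B cell surface protein that therapeutic antibodies against B cells bind. Ms4a2 is the β chain of the high-affinity IgE receptor of mast cells and basophils, where it amplifies the signal of the receptor. Ms4a4b and Ms4a6b are best known from T cells, and Ms4a6c, Ms4a6d and Ms4a7 from monocytes and macrophages. The family is therefore read here against markers of B, T, NK, myeloid and mast cells and of lung.

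The 5 arrays differ in more than genotype. KA/KA 1 and WT 1 carried high signals of the poly-A control transcripts (medians of 11897 and 7305) and of early B cell genes, and are called the marrow-like pair. KA/KA 2, KA/KA 3 and WT 2 carried low control signals (46.9 to 249), and are called the lung-like arrays. Of 11 genes of lung epithelium, 8 were above percentile 95 of all 3 lung-like arrays and of neither array of the pair. The labels give B220+ bone marrow cells for all 5 arrays, and these lung signals on 3 of them go against the labels. Which tissue those 3 hold was not tested. Rag1, which cuts antigen receptor genes in B cell precursors, read 12.80 and 12.79 on the pair and 4.09 to 4.10 on the others, so this marker of B cell precursors was at background there. Some B cell surface genes were still bright on the lung-like arrays at lower levels, with Cd79b, an antigen receptor chain, at 9.39 to 11.10. On the pair it read 13.63 and 14.17. Others were dim there. Cd79a, its partner chain, read 6.27 on KA/KA 2, below that array's median of 7.13, and 8.32 and 7.43 on KA/KA 3 and WT 2. The arrays also differed in sex-linked transcripts. Xist, made from the inactive X chromosome of females, read 12.48 and 13.93 on KA/KA 1 and KA/KA 2 and 6.49 to 7.67 on the rest. The Y-linked Eif2s3y read 4.78 on KA/KA 2 and 10.41 to 11.37 elsewhere, KA/KA 1 included. These values are log2(signal + 16), the scale of all levels and differences below unless a signal is named, and 1 unit is a 2-fold difference of signal + 16. Array medians ran from 95.7 to 128 signal units, and the number of arrays limits the precision.

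All 21 mouse Ms4a genes in the RefSeq table lie side by side on chromosome 19, within 679 kb of the GRCm38.p6 assembly (chr19:10962289-11640851). The 10 genes described here span 556 kb of it (chr19:11067471-11623790). From one end they run Ms4a8a, Ms4a1, Ms4a7, Ms4a4c, Ms4a4b, Ms4a6c, Ms4a6b, Ms4a4d, Ms4a6d and Ms4a2. RefSeq promoter windows (GRCm38.p6) were found for 8 of the 10, not for Ms4a1 and Ms4a6d. Of pairs that aligned over at least 150 columns, Ms4a6b with Ms4a6c (82.7% identical over 185 columns) and Ms4a4b with Ms4a4c (72.4% over 261 columns) stood first, and the next pair had 58.2%. For these 4 genes the 250 bases before the transcript start that RefSeq's window uses are printed, because the first pair gave like profiles over the arrays and the second did not. The Ms4a4c window lies inside that gene's span (chr19:11404717-11427246), and the Ms4a6c window runs past the first base of that gene's span, 11469353. All 4 are on the plus strand, and capitals mark GGAAGT, the core that ETS factors such as PU.1 bind, on either strand.
Ms4a4b, chr19:11443308-11443557: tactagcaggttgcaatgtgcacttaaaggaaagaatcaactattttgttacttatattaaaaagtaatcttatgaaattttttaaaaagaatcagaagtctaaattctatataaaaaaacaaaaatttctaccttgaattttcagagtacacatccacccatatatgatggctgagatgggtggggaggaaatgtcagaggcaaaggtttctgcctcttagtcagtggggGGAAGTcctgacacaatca
Ms4a4c, chr19:11407411-11407660: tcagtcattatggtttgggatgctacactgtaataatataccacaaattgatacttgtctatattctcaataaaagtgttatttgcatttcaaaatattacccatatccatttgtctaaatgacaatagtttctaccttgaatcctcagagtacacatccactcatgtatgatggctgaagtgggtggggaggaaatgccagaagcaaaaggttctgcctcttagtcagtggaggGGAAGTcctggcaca
Ms4a6b, chr19:11518309-11518558: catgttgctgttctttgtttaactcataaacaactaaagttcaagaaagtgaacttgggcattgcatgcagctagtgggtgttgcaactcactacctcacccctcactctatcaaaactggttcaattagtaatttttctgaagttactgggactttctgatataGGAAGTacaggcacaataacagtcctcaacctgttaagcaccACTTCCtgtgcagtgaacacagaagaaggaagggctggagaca
Ms4a6c, chr19:11469118-11469367: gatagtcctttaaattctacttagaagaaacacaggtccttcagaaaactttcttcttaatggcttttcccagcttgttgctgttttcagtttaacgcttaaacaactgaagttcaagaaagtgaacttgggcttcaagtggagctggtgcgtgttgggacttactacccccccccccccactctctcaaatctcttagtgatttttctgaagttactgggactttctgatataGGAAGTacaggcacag

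GGAAGT, searched on both strands, was present in 6 of the 8 windows (Ms4a4b, Ms4a4c, Ms4a4d, Ms4a6b, Ms4a6c and Ms4a7), and 19.7% of all 32851 windows of this length hold it. In Ms4a4b and Ms4a4c it begins 19 and 15 bases before that transcript start, inside the stretch that both share. In Ms4a6b and Ms4a6c a match begins 85 and 16 bases before it, also inside a stretch that both share. The 6 windows are thus not separate cases. AGATAA, the core bound by GATA factors, was found in 1 window, that of Ms4a2 (9.99% of all windows). The κB consensus (3.9% of all windows) and the interferon response core (2.98%) were in none of the 8. A match is a run of letters in this window and no more.

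The members were chosen with their genotype differences known, and the sets of arrays were taken from the same data, so the genotype values below are descriptions and carry no test. limma, fitted over all 5 arrays, called 0 of 11392 genes between KA/KA and WT at an adjusted p of 0.05 (0%), and 25 genes (0.219%) had an unadjusted p under 0.05. With the array set as a block it called 0 (0%), and 311 genes (2.73%) had an unadjusted p under 0.05. The fit without the block leaves the difference between the array sets in its spread. For Ms4a1 the standard error was 1.89 without the block and 0.67 with it. With so few arrays, 0 calls do not show that the genotypes are alike. Of the 10 members, 9 were among the genes tested, each with an adjusted p of 0.9999 in the limma fit without the block. Ms4a2 was too dim to pass the filter, which kept probe sets with a mean of at least 7.04, and Ms4a4b and Ms4a8a passed it only through the arrays on which they were high. For each gene the probe set of highest mean stands for it, and the others are given where they differ.

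**Figure D1:**
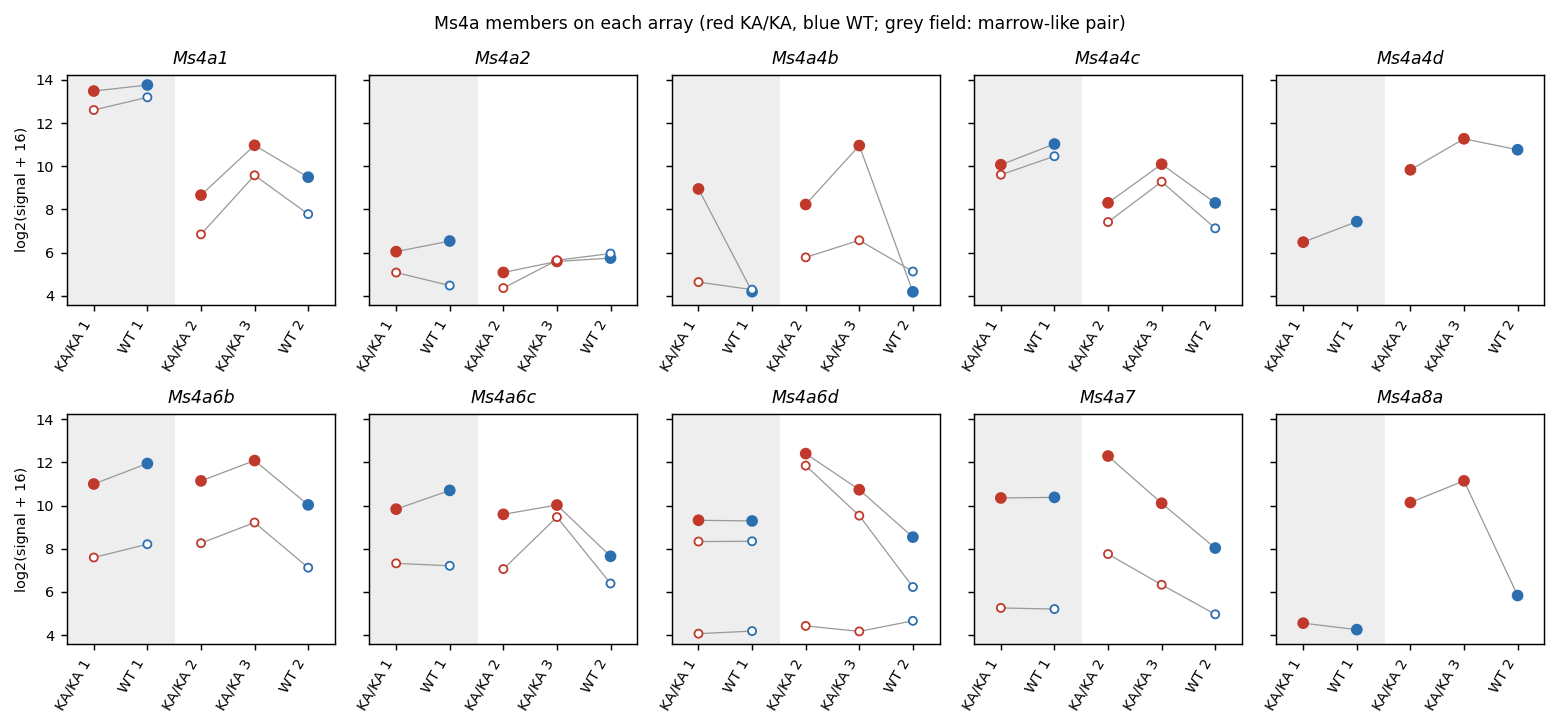
Level of each Ms4a gene as log2(signal + 16) on the 5 arrays (x axis), red for KA/KA and blue for WT. Filled points are the probe set of highest mean, open points the other probe sets, grey lines join arrays of 1 set and the grey field holds the marrow-like pair. Ms4a1 was high on the pair, Ms4a4d and Ms4a8a on lung-like arrays, and Ms4a4b was lowest on the WT arrays (4.19 and 4.18).

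Ms4a1, the CD20 gene, separated the array sets. It read 13.48 on KA/KA 1 and 13.76 on WT 1. The lung-like arrays gave 8.66 for KA/KA 2, 10.97 for KA/KA 3 and 9.49 for WT 2 (probe set 1423226_at, signals of 11444, 13897, 389, 1992 and 705). The sets did not overlap, and the lung-like mean minus that of the pair was -3.92, a 15.1-fold difference of signal + 16. Means of at least 1 unit apart without overlap in this direction were seen for 10.4% of all genes. The second probe set, 1450912_at, gave -4.83. Within the sets the genotype differences were small or mixed. KA/KA minus WT was -0.28 in the pair, which quantile normalization turned to 0.10, and -0.83 for KA/KA 2 and 1.48 for KA/KA 3 on the lung-like arrays.

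B cell genes stood beside Ms4a1 in the same arrays. All 11 measured genes of the B cell surface list, among them the antigen receptor chains Cd79a and Cd79b, were lower on the lung-like arrays without overlap and by at least 1 unit. Their summed signal was 56326 (KA/KA 1) and 76230 (WT 1) in the pair, beside 16585 (KA/KA 2), 21828 (KA/KA 3) and 12821 (WT 2). Of the early B cell list 6 of 8 genes were lower in this way, beside 10.4% of all genes. Over the 5 arrays the profiles most like that of Ms4a1, among the 11391 other genes past the filter, were those of Ermap, Cd79a and Bfsp2, with a mean absolute difference of 0.16, 0.18 and 0.23 after each profile was centred on its mean. In whole samples such as these, fewer cells of a type and less RNA per cell cannot be told apart.

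Ms4a4b, a membrane protein of T cells that was described as a modulator of their activation and proliferation, was higher on all KA/KA arrays by its brighter probe set. Its signal was 478 on KA/KA 1, 284 on KA/KA 2 and 1975 on KA/KA 3, against 2.23 on WT 1 and 2.14 on WT 2 (probe set 1423467_at). On the log scale these are 8.95, 8.23 and 10.96 against 4.19 and 4.18. Every KA/KA array was above both WT arrays, in both sets of arrays, and the WT values lay at percentiles 2.07 and 1.44 of their arrays, at the level of background. Means were 9.38 ± 1.42 (SD, n = 3) and 4.18 ± 0.005 (SD, n = 2), and their difference was 5.19. With WT at background this size is not well defined, and the second probe set gave 0.96. KA/KA arrays lay wholly above WT arrays, with means at least 1 unit apart, for 0.885% of all genes (0.571% of those past the filter). Among the members this held for Ms4a4b and, with 0.03 between the nearest KA/KA and WT values, for Ms4a6d, where quantile normalization ends it.

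Inside the sets the difference of Ms4a4b was 4.76 in the marrow-like pair, and 4.05 (KA/KA 2) and 6.78 (KA/KA 3) on the lung-like arrays. Because WT was at background, the size rests on the constant added to the signal. With 64 in place of 16 the pair gave 3.03 and with 1 it gave 7.21, and the lung-like mean of 5.41 became 3.67 and 7.90. The other probe set of this gene, 1425325_at, showed much less. It read 4.63 and 4.28 on KA/KA 1 and WT 1, and 5.78, 6.57 and 5.12 on KA/KA 2, KA/KA 3 and WT 2. On this probe set the genotypes overlapped, with KA/KA above WT by 0.35 in the pair and by 0.65 and 1.45 on the lung-like arrays. With both probe sets averaged the difference was 2.56 in the pair and 3.23 on the lung-like arrays. Xist read 12.48, 13.93 and 7.22 on KA/KA 1, KA/KA 2 and KA/KA 3, and 6.49 and 7.67 on WT 1 and WT 2. The part of sex in the Ms4a4b difference was not tested.

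Most T cell markers were lower on KA/KA 1 in the marrow-like pair, and some were higher. The summed signal of 13 T cell genes was 4217 on KA/KA 1 and 6598 on WT 1, and that of 8 NK cell genes 4131 and 5817. Cd3d, a chain of the T cell receptor complex, held most of the T cell gap (741 and 2491). Of the 13 T cell genes 9 were lower on KA/KA 1 and 4 higher (Cd6 by 0.91, Cd247 by 0.33, Cd5 by 0.19 and Cd4 by 0.08), with a median difference of -0.19. At least 1 unit lower were 2 of 13, Zap70 (-1.79) and Cd3d (-1.73), beside 3.65% of all genes. As much higher were 0 of 13, beside 5.03% of all genes. The median level was 7.00 on KA/KA 1 and 6.92 on WT 1 for the T cell list, and 8.71 and 8.69 for the NK list, of which 1 of 8 genes was higher on KA/KA 1. On the lung-like arrays, unlike in the pair, most T cell genes were higher on KA/KA. Their sum was 6221, 13407 and 3078 on KA/KA 2, KA/KA 3 and WT 2. At least 1 unit above WT 2 on both KA/KA arrays were 6 of 13, beside 3.51% of all genes. The NK sums there were 1710, 2423 and 2494, with 0 of 8 at least 1 unit above on both. The part of T cell number in the lung-like difference was not tested. No gene had a profile close to that of Ms4a4b, and the nearest 3, the chemokine Ccl22, the macrophage receptor Marco and the chemokine Ccl17, were 1.41, 1.42 and 1.48 away.

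Ms4a4c, the neighbour of Ms4a4b on the chromosome, read 10.07 on KA/KA 1 and 11.03 on WT 1, and 8.31, 10.10 and 8.30 on KA/KA 2, KA/KA 3 and WT 2 (probe set 1420671_x_at). KA/KA 1 minus WT 1 was -0.96. On WT 2 it lay at percentile 64.7 of the array, and the second probe set at percentile 49.3. On the lung-like arrays KA/KA 2 was level with WT 2 (0.004) and KA/KA 3 was 1.79 above it. The second probe set, 1450291_s_at, gave -0.86 in the pair and 0.29 and 2.16 on the lung-like arrays. Both names carry the suffix of probe sets that may bind more than 1 transcript. The nearest profiles were those of Mcemp1 (0.09), Lst1 (0.11) and 2410006H16Rik (0.16).

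Ms4a6b, which associates with the T cell costimulator GITR, was high on all arrays. It read 11.00 and 11.95 on KA/KA 1 and WT 1, then 11.14 on KA/KA 2, 12.08 on KA/KA 3 and 10.03 on WT 2 (probe set 1418826_at). KA/KA minus WT was -0.95 in the pair, and 1.11 and 2.05 on the lung-like arrays. Its second probe set, 1439956_at, had the same signs, with -0.61, 1.13 and 2.09. Tnfrsf18, which encodes GITR, differed the same way (-1.01, 1.36 and 1.53). Of the list of GITR and calcium entry partners it was the 1 gene of 5 that lay at least 1 unit above WT 2 on both KA/KA arrays. Of all genes 3.51% did. Alox5ap (0.13), Prkcq (0.17) and Hcst (0.17) had the nearest profiles to Ms4a6b.

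Ms4a6c, a family member of monocytes, followed Ms4a6b closely. Levels were 9.83 and 10.70 on KA/KA 1 and WT 1 and 9.59, 10.02 and 7.65 on KA/KA 2, KA/KA 3 and WT 2 (probe set 1450234_at). The differences of -0.87, 1.94 and 2.38 changed sign between the sets as those of Ms4a6b did, a pattern of at least 0.5 either way that 2.08% of all genes shared. Of the 45 pairs of members these 2 genes had the closest profiles, 0.43 apart, with Ms4a4c next to them (0.51 from Ms4a6c and 0.61 from Ms4a6b). Ms4a4b and Ms4a4c, which also share their promoter stretch, were 2.58 apart. The second probe set of Ms4a6c, 1457725_at, did not show the lower KA/KA value in the pair (0.11) and gave 0.67 and 3.08 on the lung-like arrays. Tlr1, Abcb8 and Cd52 were the nearest other genes (0.14, 0.19 and 0.19).

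**Figure D2:**
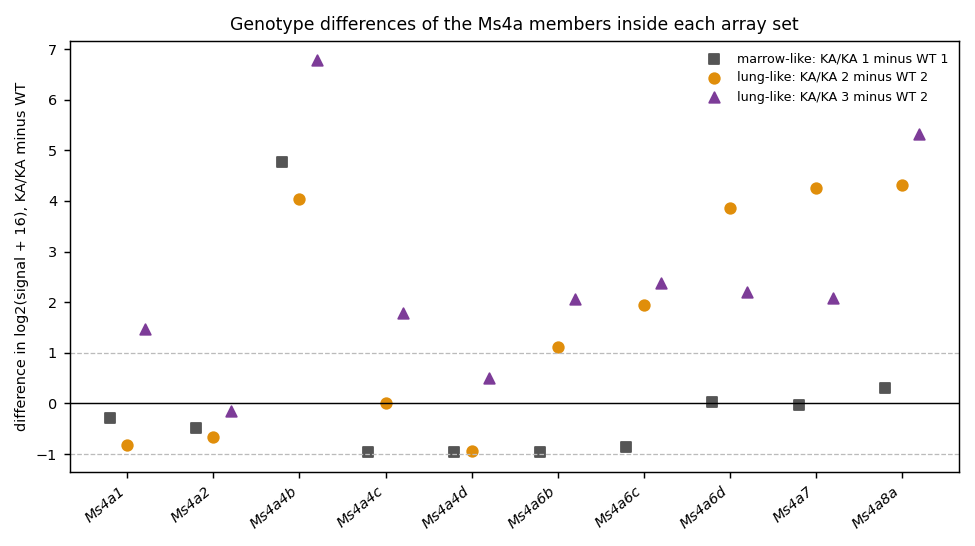
Difference in log2(signal + 16), KA/KA minus WT, for each Ms4a gene (x axis) in the marrow-like pair (grey squares) and for KA/KA 2 (orange circles) and KA/KA 3 (purple triangles) on the lung-like arrays; dashed lines mark 1 unit. Ms4a4b was the only member above 1 unit in all 3, and Ms4a6d, Ms4a7 and Ms4a8a were above it on the lung-like arrays and between -0.03 and 0.30 in the pair.

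Ms4a6d and Ms4a7, both of macrophages, were level between the genotypes in the marrow-like pair and far apart on the lung-like arrays. Ms4a6d read 9.32 and 9.29 on KA/KA 1 and WT 1 (a difference of 0.03), and 12.41, 10.73 and 8.54 on KA/KA 2, KA/KA 3 and WT 2 (probe set 1419599_s_at). KA/KA 2 was 3.87 and KA/KA 3 was 2.20 above WT 2. The probe set 1419598_at, which is not of the shared kind, gave larger differences of 5.62 and 3.31, while 1449539_at stayed between 4.06 and 4.66, at background, on all arrays. Ms4a7 read 10.35 and 10.38 on the pair, and 12.29, 10.11 and 8.03 on KA/KA 2, KA/KA 3 and WT 2 (probe set 1424754_at). Its signals on the lung-like arrays were 5006, 1086 and 245, and KA/KA lay above WT 2 by 4.26 and 2.08. The second probe set, 1445365_at, had the same signs there (2.79 and 1.37). In both genes KA/KA 2 was highest and WT 2 lowest of the 5 arrays. The signs in the pair depend on the probe set, and for Ms4a6d quantile normalization gave -0.08.

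The sum of macrophage genes had the same order on the lung-like arrays. This summed signal of 20 monocyte and macrophage genes was 131271 (KA/KA 2), 88521 (KA/KA 3) and 36541 (WT 2) there, and 79397 (KA/KA 1) and 78709 (WT 1) in the pair. On the lung-like arrays 10 of the 20 were at least 1 unit above WT 2 on both KA/KA arrays, beside 3.51% of all genes. Of the 3 with the highest mean, Mpeg1, a pore-forming protein of phagocytes, was 2.03 and 1.71 above WT 2, the lysozyme gene Lyz2 0.92 and 0.96, and the growth factor receptor Csf1r 0.93 and 0.73. In the list 6 of 20 genes (Lyz2, Cd14, Marco, Ccr2, Mertk and Aif1) were higher on KA/KA 3 than on KA/KA 2, unlike the sum. In the pair Mpeg1, Lyz2 and Csf1r differed by 0.17, -0.77 and 0.78. How far the Ms4a6d and Ms4a7 differences follow the amount of macrophage RNA was not tested. The nearest profiles to Ms4a7 were those of the inhibitory Fc receptor Fcgr2b (0.15), Mgam (0.25) and Il13ra2 (0.30). Those nearest to Ms4a6d were Basp1 (0.23), Il1rn (0.26) and Cd300lb (0.28). Neutrophil genes, another myeloid list, had sums of 131653 (KA/KA 1) and 198980 (WT 1) in the pair, and of 59193 (KA/KA 2), 90769 (KA/KA 3) and 8200 (WT 2) on the others. Of these, 4 of 10 were at least 1 unit above WT 2 on both KA/KA arrays. Dendritic cell genes had 0 of 7 that far above, with sums of 7191, 4686 and 3927 on those arrays and of 9509 and 10470 on the pair.

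Ms4a8a, known from alternatively activated macrophages and from epithelium, was near background on the pair and high on the KA/KA lung-like arrays. Its signal was 7.43 and 3.05 on KA/KA 1 and WT 1, and 1113, 2248 and 41.0 on KA/KA 2, KA/KA 3 and WT 2 (probe set 1418797_at, its only one). On the log scale the values were 4.55 and 4.25 against 10.14, 11.14 and 5.83. All lung-like arrays were above the pair, WT 2 with the narrowest margin, and the set means were 4.64 apart. With the pair at background this size rests on the added constant (6.34 with 1 and 3.25 with 64), and it was 6.24 without WT 2. Such upward separation of the lung-like arrays was seen for 20.9% of all genes and for 2 of the 10 members, the other being Ms4a4d. Against WT 2 the KA/KA arrays differed by 4.31 and 5.31. WT 2 lay at percentile 27.9 of its array, so this size too rests on the constant. The mean of 4.81 became 5.24 with 1 and 3.97 with 64. The lectin Itln1 had a profile 0.24 from that of Ms4a8a, and Ch25h (0.57) and Ctsk (0.74) came after it. Itln1 read 4.76, 4.37, 10.66, 11.86 and 5.87 on KA/KA 1, WT 1, KA/KA 2, KA/KA 3 and WT 2.

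Ms4a4d was higher on all lung-like arrays than on the pair. It read 6.48 on KA/KA 1 and 7.43 on WT 1, and 9.83, 11.27 and 10.77 on KA/KA 2, KA/KA 3 and WT 2 (probe set 1418990_at, its only one). The lung-like mean was 3.67 above that of the pair, 12.7-fold on signal + 16. KA/KA minus WT was -0.95 in the pair, -0.93 for KA/KA 2 and 0.51 for KA/KA 3. Hopx (0.16), Vldlr (0.21) and Tbx3 (0.22) had the nearest profiles, and Hopx is a marker of flat alveolar cells. The summed signal of 11 lung epithelial genes was 536 and 383 on KA/KA 1 and WT 1, and 182259, 198092 and 124059 on KA/KA 2, KA/KA 3 and WT 2. That of 8 endothelial genes was 3372 and 2146, and 12341, 35703 and 42955. Among the lung-like arrays the endothelial sum was lowest on KA/KA 2, as Ms4a4d was, but highest on WT 2. Ms4a4d was highest on KA/KA 3, as the lung epithelial sum was, but that sum was lowest on WT 2. Of the 8 endothelial genes 6 were higher on KA/KA 3 than on KA/KA 2. Against WT 2, 1 of 11 lung epithelial and 0 of 8 endothelial genes were at least 1 unit higher on both KA/KA arrays. Of all genes 3.51% were. The part of either tissue in the Ms4a4d level was not tested.

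Ms4a2, the IgE receptor β chain, was dim on every array. The probe set 1443264_at gave signals of 50.0 and 76.8 on KA/KA 1 and WT 1, and 17.8, 32.1 and 37.6 on KA/KA 2, KA/KA 3 and WT 2. The second, 1421475_at, gave 17.7, 6.21, 4.47, 34.1 and 46.0 on KA/KA 1, WT 1, KA/KA 2, KA/KA 3 and WT 2. The probe sets pointed in opposite directions in the pair (-0.49 and 0.60), so the pair gives no direction. On KA/KA 2 and KA/KA 3 both were below WT 2, with -0.67 and -0.16 for the first and -1.60 and -0.31 for the second. Fcer1a, the chain that binds IgE, did not pass the filter either and lay between 5.30 and 6.04. Fcer1g, the γ chain that is shared with Fc receptors of myeloid cells, read 12.40 and 12.66 on the pair and 12.89, 12.46 and 10.75 on KA/KA 2, KA/KA 3 and WT 2. Of 9 IgE receptor signalling genes 2 were at least 1 unit above WT 2 on both KA/KA arrays, beside 3.51% of all genes. Lower on all lung-like arrays than on the pair, with means at least 1 unit apart, were 5, beside 10.4% of all genes.

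Most mast cell proteases were dim too. Cma1, Cpa3, Mcpt1, Mcpt2, Mcpt4, Tpsab1 and Tpsb2 did not pass the filter, and Mcpt4 was between 4.18 and 5.56. Cpa3, a carboxypeptidase of mast cells, was the brightest of these on the pair, with 7.56 on KA/KA 1 and 8.05 on WT 1, and read 5.63, 6.31 and 6.97 on KA/KA 2, KA/KA 3 and WT 2. Mcpt8, a protease of basophils, read 8.21 and 9.54 on KA/KA 1 and WT 1 and 4.51 to 6.73 on the lung-like arrays. Only 4 of the 12 measured genes of the mast cell and basophil list (Kit, Hdc, Gata2 and Mitf) passed the filter, and all of these are made by other cells too. The list's summed signal was 2553 and 3191 on KA/KA 1 and WT 1, and 7411, 11649 and 10948 on KA/KA 2, KA/KA 3 and WT 2. Most of it came from these 4 genes, with signals on KA/KA 3 of 4238 (Kit), 3647 (Gata2), 1917 (Hdc) and 1505 (Mitf). The sum is therefore no measure of mast cell RNA. At least 1 unit above WT 2 on both KA/KA arrays were 0 of 12 genes, beside 3.51% of all genes.

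**Figure D3:**
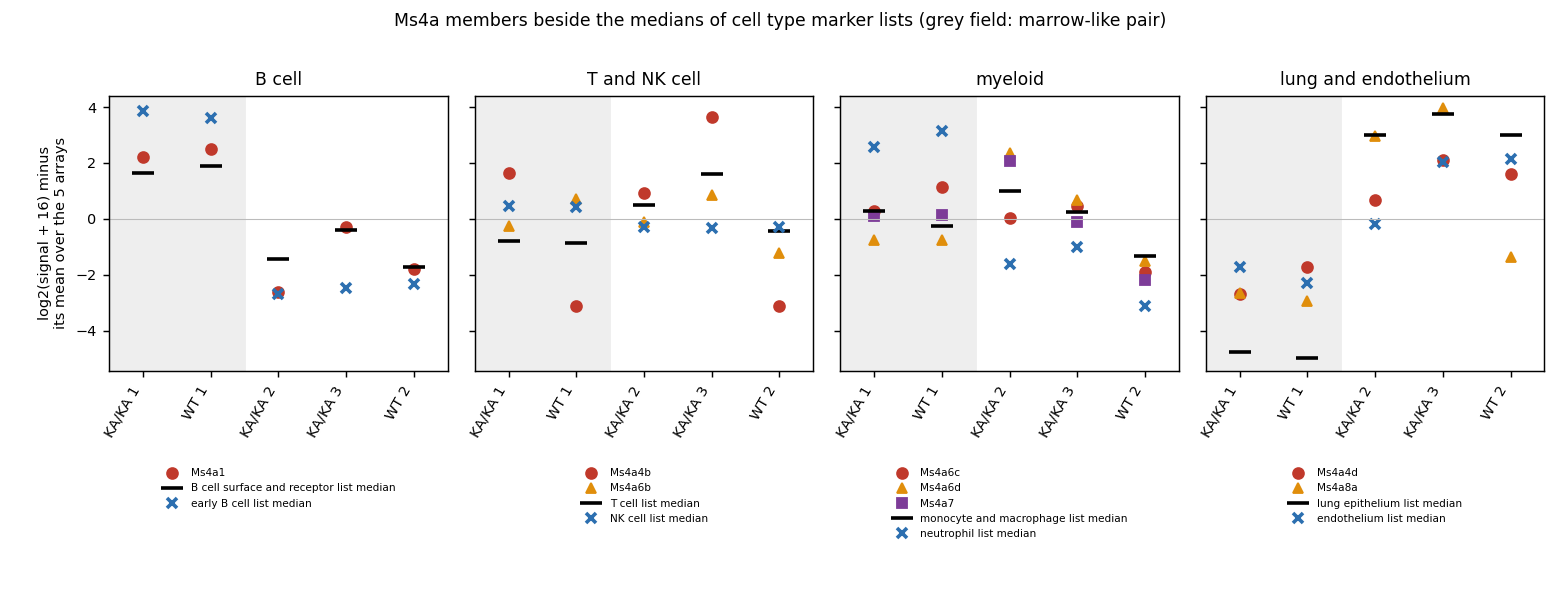
Levels of Ms4a genes (coloured circles, triangles and squares) beside the median level of marker lists (black bars and blue crosses), each as log2(signal + 16) minus its own mean over the 5 arrays (y axis), by array (x axis); the grey field holds the marrow-like pair. Ms4a1 and both B cell lists were above their means on the pair and below them on the others, Ms4a6d and Ms4a7 ran in the order of the macrophage list median on the lung-like arrays, and Ms4a4b differed between KA/KA 1 and WT 1, where the T cell list medians were 7.00 and 6.92 before centring.

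Over the family, 3 of 10 members were higher on KA/KA 1 than on WT 1, 7 were higher on KA/KA 2 than on WT 2 and 9 on KA/KA 3. In the marrow-like pair 1 of 10 members, Ms4a4b, was at least 1 unit higher on KA/KA 1, where 5.03% of all genes were, and 0 members were as much lower (3.65% of all genes). The median difference of the 10 members was -0.39, beside 0.05 over all genes. On the lung-like arrays 6 of 10 members (Ms4a4b, Ms4a6b, Ms4a6c, Ms4a6d, Ms4a7 and Ms4a8a) were at least 1 unit above WT 2 on both KA/KA arrays, and 3.51% of all genes were. In the other direction the count was 0, beside 2.73% of all genes. The median was 1.53 for KA/KA 2 and 2.06 for KA/KA 3, beside -0.04 and -0.03 over all genes. Both comparisons use WT 2, the single WT array of that set, so they are not separate results. The members were chosen with these values known, so the counts are a description, and the difference between the sets was not tested.

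Of 8 other measured genes of the family and its relatives, 0 were at least 1 unit above WT 2 on both KA/KA arrays, beside the 3.51% of all genes. Ms4a19, which that list does not hold, gave -0.13 in the pair and -0.75 and 0.25 on the lung-like arrays, and did not pass the filter. Ms4a3, a gene of granulocyte and monocyte progenitors, read 11.10 and 12.42 on KA/KA 1 and WT 1 and 6.85, 7.00 and 6.68 on KA/KA 2, KA/KA 3 and WT 2, so that KA/KA 1 minus WT 1 was -1.32. The related Tmem176b and Tmem176a ran the other way, with Tmem176b at 10.49 and 10.74 on the pair and at 13.97, 13.97 and 13.29 on the lung-like arrays. Tmem176a read 9.46 and 9.89, then 13.50, 13.20 and 12.83. Ms4a15 was between 7.13 and 7.96 throughout. Ms4a10, Ms4a13, Ms4a18 and Ms4a20 did not pass the filter and stayed at or below 6.30. Ms4a4a, Ms4a5, Ms4a12 and Ms4a14 were not analysed here.

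**Figure D4:**
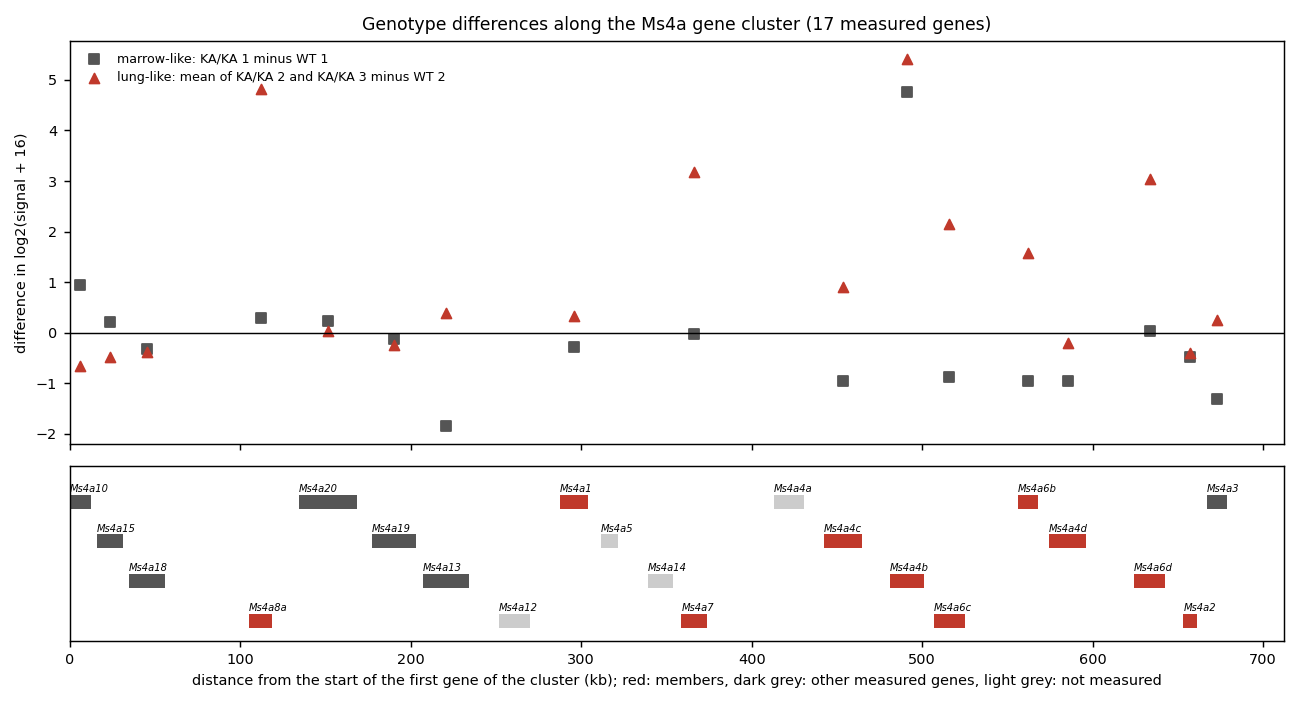
Upper panel: difference in log2(signal + 16), KA/KA minus WT, of the 17 measured Ms4a genes in the marrow-like pair (grey squares) and on the lung-like arrays (red triangles, mean of KA/KA 2 and KA/KA 3 minus WT 2), placed by distance in kb from the start of the first gene. Lower panel: the 21 genes to scale, on staggered lines. The 2 genes on either side of Ms4a4b, Ms4a4c and Ms4a6c, were below 0 in the pair, where Ms4a4b stood at 4.76.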

How the data were processed

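Expression was measured on 5 arrays, 3 KA/KA and 2 WT. The authors deposited 1 table of intensities. The submitters' processing notes name MAS5 and give no version. The series text speaks of normalization and a log2 step, but the deposited intensity values are linear, with a trimmed mean of 500 on each array (2% left out at each end). log2(signal + 16) was computed from them. Detection calls were not used here. Control probe sets (64) took no part in the fit. The platform annotation gave 34945 of the remaining probe sets 1 symbol, 932 several (left unnamed) and 9160 none. The fit used the 22519 probe sets whose mean log2 signal reached the overall median (7.04), and for a gene with several of them the brightest by mean, which left 11392 genes.

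limma 3.58.1 in R 4.3.3 (lmFit, eBayes with an intensity trend, two-sided, Benjamini-Hochberg over all genes, threshold 0.05) compared KA/KA with WT. It was tested on simulated data with 200 changed genes. That simulation had independent noise and no array sets, so it does not show how the fit does on these arrays. No exact permutation test was made, since 3 against 2 arrays cannot give a p under 0.1. The p-values rest on the spread between these arrays, which without a block includes the difference between the array sets. Array sets were split at a median log2 signal of 10 over 24 poly-A control probe sets, and comparisons of and within them are untested. Genes named beside the members were those of the Ms4a relatives list, the IgE receptor chains, up to 3 of highest mean in the other lists, and the 3 nearest profiles of each member past the filter. Rag1, Tnfrsf18, Cma1, Cpa3, the Mcpt and Tps proteases, Mitf, Ms4a19, Cd4, Cd5, Cd6, Cd247, Zap70, Cd14, Marco, Ccr2, Mertk and Aif1 fall outside this rule. So do the genes of the closing observations and the sex-linked genes. All of these were named after their values were seen. Members and the 13 lists were chosen with earlier results of these data known. Promoter windows came from RefSeq (GRCm38.p6) and were aligned with Biopython 1.88 (end gaps free).

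Alternatives were pseudocounts of 1 and 64, quantile normalization, median centring, the mean of probe sets, leaving out shared probe sets, no filter, an upper-quarter filter, every probe set on its own, no trend, a block for the replicate number or for the array set, and the fit without each array in turn. The replicate numbers are shared by both groups, and the labels do not say that they pair samples.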

Additional observations from a re-analysis of the deposited data

Results flagged for a closer look

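Ms4a6b and Ms4a6c had opposite genotype differences in the 2 sets of arrays. Ms4a6b was lower on KA/KA 1 than on WT 1 (-0.95) and higher on KA/KA 2 (1.11) and KA/KA 3 (2.05) than on WT 2. Ms4a6c gave -0.87, 1.94 and 2.38 in the same order by its brighter probe set. In the pair its second probe set, 1457725_at, gave 0.11, and the mean of its probe sets gave -0.38. Of all 18193 genes 2.08% differed by at least 0.5 in these directions. The difference between the sets was not tested.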

How the results depend on the processing

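limma called 0 genes over the 5 arrays in every alternative but 1. With the replicate number as a block (replicate block) it called 1 gene, Xist (6.13 ± 0.35, KA/KA minus WT ± SE, adjusted p = 0.0114), 329 genes had an unadjusted p under 0.05, and Ms4a4b stood at 4.40 without passing (adjusted p = 0.396). That block leaves KA/KA 3 out of the estimate. The same numbers fall in the same array set, with a correlation of their deviations from the group means of 0.88 and 0.65. KA/KA 3, whose number no WT array has, gave 0.79 with WT 2. No pairing of samples can be read from these values, since they follow the array sets. With a pseudocount of 1 or the upper-quarter filter, Ms4a4b and Ms4a8a did not pass and were not fitted. The unadjusted count ran from 6 (without KA/KA 2) over 9 (without KA/KA 3), 133 (without WT 2), 164 (without KA/KA 1) and 175 (without WT 1) to 329, and was 186 with no filter. It was 47 over all kept probe sets. The family medians kept their sign in the marrow-like pair (-0.44 to -0.21) and on the lung-like arrays (1.53 to 2.16) under all alternatives tried. The median between the sets, -0.30, changed sign with the mean of probe sets (0.20) and without WT 2 (0.49). The difference of Ms4a4b between the sets, 1.22, ran from -1.16 (without WT 1) to 3.60 (without KA/KA 1), with -0.36 without KA/KA 3. Each set mean includes a WT array at background. The lung-like mean difference of Ms4a1, 0.32, was -0.83 without KA/KA 3 and 1.48 without KA/KA 2. Median centring moved -3.92 of Ms4a1 between the sets to -4.26. Low signals limit Ms4a2, the WT values of Ms4a4b, and the values of Ms4a8a on the pair and on WT 2.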

Other observations

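On chromosome 19, 6 of 411 genes past the filter (1.46%) had all KA/KA above both WT arrays with means at least 1 unit apart. The share was 0.571% over all genes past the filter, 1.45% on the X chromosome, 0.91% on chromosome 1 and 0.90% on chromosome 17. The count on chromosome 19 includes Ms4a4b and Ms4a6d, which were chosen with their values known. Ms4a6d met the rule by 0.03, between KA/KA 1 and WT 1. Besides these, those on chromosome 19 were Rab3il1 (1.13), Slc15a3 (1.26), Mpeg1 (1.16) and Lipa (1.03), given as KA/KA minus WT. Rab3il1 starts at 10001669 and Mpeg1 ends at 12465285, on either side of the Ms4a cluster, and Lipa starts at 34492316 (GRCm38.p6). Mpeg1 is also in the macrophage list. These genes were picked after their values were seen, and no test was made.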
